A study of Saccharomyces cerevisiae with 9 samples.

Results

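The comparison described here set a yeast strain without SEG1, NCE102 and PIL1 against a strain without PIL1 alone, across every gene with enough reads. Its members were all genes that averaged 10 or more normalized reads across the 6 libraries of these strains, which gave 5879 of the 6215 genes with a row and left out 336. Next to that limit, YPL261C (10.2), YLR406C-A (10.3) and YOR394C-A (10.4) were just inside, and ECM11 (9.99), YOR268C (9.97) and SNR45 (9.96) just outside. The triple mutant was MATα, carried his3Δ1, leu2Δ0 and ura3Δ0 together with LYS2 and MET15, and lacked SEG1, NCE102 and PIL1 (seg1Δ nce102Δ pil1Δ). The pil1 mutant was BY4742 with pil1::kanMX4, and so MATα with his3Δ1, leu2Δ0, ura3Δ0 and also lys2Δ0. BY4742 itself, the wild type, entered the fit and is described only for the deleted genes, LYS2 and 4 genes of chromosome I. Each strain gave 3 biological replicates of polyadenylated RNA, and synthetic complete medium was used for all 3 strains, at 28 °C over 24 h and with no treatment, after which cells were washed in 10 mM NaF/NaN3. Since the labels give the triple mutant LYS2 and the pil1 mutant lys2Δ0, the effects of SEG1 and NCE102 loss, of the LYS2 allele and of anything else in the strains' ancestry cannot be told apart. The labels do not say whether the replicates came from separate clones, so p-values measure only the spread between these libraries.

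Eisosomes are protein assemblies under the yeast plasma membrane that hold furrow-like invaginations in place. The BAR-domain proteins Pil1 and Lsp1 form their scaffold, Seg1 acts upstream of Pil1 in eisosome assembly, and the furrow membrane protein Nce102 takes part in sphingolipid signalling to the kinases Pkh1 and Pkh2. Furrows are also known for sheltering nutrient permeases from endocytosis. A culture left for a day in glucose medium is known to pass from fermentation to respiration, a shift that changes glycolytic, respiratory, ribosomal and stress genes together.

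Each library held between 21064051 and 27014469 reads in genes. Replicates of the triple mutant were unequal: by a chi-square per degree of freedom over genes, replicate 1 differed from replicates 2 and 3 by 401 and 315, while replicates 2 and 3 differed by 52.8, and the pil1 replicates by 36.9 to 149.7. Of 5650 genes that averaged 50 or more normalized reads, 46 spanned at least 4-fold within the triple mutant, and replicate 1 was the farthest library in 39 of them. In the pil1 mutant 12 genes did so. In 31 genes replicate 1 of the triple mutant was at least 4-fold above both other replicates, and in 0 genes at least 4-fold below both. Results that rest on that library are given with and without it. Both strains had reads of the MATα genes: STE3, the receptor for a-factor, had 1770.4, 1773 and 1664 normalized reads in triple mutant libraries, against 2210.3, 2121 and 2454 in pil1 libraries.

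The deleted genes matched the labels. SEG1 had 27.3, 13.6 and 13.9 normalized reads in triple mutant libraries, against 6114, 6855 and 6251 in the pil1 mutant and 6130.4, 7179 and 6577 in the wild type. NCE102 had 139, 234 and 239 in the triple mutant, against 100207, 76222 and 95956 in the pil1 mutant and 99205, 83910 and 106366 in the wild type. PIL1 was low in both mutants, at 89.9, 91.3 and 99.9 in the triple mutant and 116, 111 and 116 in the pil1 mutant, against 15878, 20364 and 21404 in the wild type. LYS2, the alpha-aminoadipate reductase of lysine synthesis, had 24789.6, 31688 and 35639 normalized reads in the triple mutant and no read in any pil1 or wild type library. Against the limit that 0 reads allow (3 reads per library, counting error only), LYS2 was at least 11817-fold higher in the triple mutant. HIS3, whose his3Δ1 allele both strains carry, fell to 3009.5, 5222 and 5511 in the triple mutant, against 9138, 8458 and 9098 in the pil1 mutant. MET17, the gene also called MET15, had 11032, 14596 and 18779 in the triple mutant, against 25232, 21848 and 21099.5 in the pil1 mutant (log2 -0.65 ± 0.19, or -0.45 without replicate 1 of the triple mutant). Its call was lost without replicate 1 of the pil1 mutant, and it overlaps YLR302C. LEU2 and URA3 were not analysed here. Beside the deleted loci, SUE1, which lies next to NCE102, rose by 1.35 ± 0.14 on the log2 scale (SE), while both neighbours of SEG1, YMR085W and PDL32, passed no test. YPR148C, on the other side of NCE102, rose by 0.50 ± 0.11 and lost its call with total-read scaling. RPL11B, a ribosomal protein gene beside PIL1 with the near copy RPL11A, fell by 1.33 ± 0.23. RAD16 and TKL2, beside LYS2, did not pass the test.

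Most of the genome differed between these strains. At an adjusted p under 0.05 in limma, 3704 of 5879 genes (63.0%) were called, 1814 higher (30.9%) and 1890 lower (32.1%) in the triple mutant. By at least 2-fold, 521 genes were called higher (8.86%) and 770 lower (13.1%), and by at least 4-fold 140 and 149. The median log2 fold change was -0.01, with the 5th and 95th percentiles at -1.58 and 1.37. Libraries of the 2 strains did not overlap in 4078 genes (69.4%). The split depends on scaling: when values were scaled to total reads, the median of all genes moved to -0.26, with 1024 genes called higher and 2567 lower, so that 28.5% of calls were higher in place of 49%. Below, a rise or fall is relative to the deposited size factors, and where that scaling turns the median of a list, or moves its number of genes called in a direction by over 1.5 times, the values it gives stand beside the list. Counts called in the lists below are to be read beside the 63.0% of all genes called. Some lists lay above that share and some near or under it. Of the latter, 57.9% of hexose transporters and sensors, 57.1% of the phosphate regulon, 47.4% of thiamine genes and 31.8% of aminoacyl-tRNA synthetases were called. So were 57.1% of sulfate and methionine genes, 57.1% of aromatic and branched amino acid breakdown, 50.5% of ribosome biogenesis and 50% of arginine genes. RNA polymerases I and III had 45%, vacuolar genes 42.9%, histidine, leucine and branched-chain synthesis 35.3% and sporulation 31.6%. The share called lower, 32.1% of all genes, was 45.4% in ribosome biogenesis, 40% in the polymerases and 46.4% in sulfate genes. In bulk RNA, fewer cells in a given state and less RNA per cell cannot be told apart. Culture densities at harvest were not given in the sources used here.

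The 12 largest rises were LYS2 and 11 other genes. HXT6, a high-affinity hexose transporter, had 153578, 83399 and 144522 normalized reads across the triple mutant libraries, against 1020.4, 667 and 1410.0 in the pil1 mutant, a 124-fold rise (log2 6.96 ± 0.29 SE, adjusted p = 6.38e-07). HXT7, whose coding sequence is so like HXT6 that reads may be split between them, rose 29.7-fold. FIT2, a cell wall mannoprotein that retains siderophore iron, had 67165, 15445 and 31252 in the triple mutant, against 271, 611 and 399 in the pil1 mutant, a 78.7-fold rise (log2 6.30 ± 0.49, adjusted p = 9.75e-06). Its partner FIT3 rose 36.5-fold, with 62101, 24628 and 53778 in the triple mutant, against 1035, 1343 and 1210.1 in the pil1 mutant. Only genes without overlap between strains entered this ranking, so the separation of the strains in these genes was fixed by that choice. YGR067C rose 63.8-fold, YIG1 48.3-fold, ACH1, a CoA transferase of acetate metabolism, 33.7-fold and EGO4 26.6-fold. RGI1 and RGI2, known for their induction in respiratory growth, rose 34.1-fold and 26.2-fold, and the log2 fold change of RGI2 was 4.71, or 3.89 without replicate 1 of the triple mutant. MLS1, the malate synthase of the glyoxylate cycle, completed the 12 with a 25-fold rise that was uneven among replicates and is described with the carbon genes.

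Among the 12 largest falls by the same rule, SEG1 and NCE102 were the deleted genes. PDC5, a pyruvate decarboxylase, had 459.7, 552 and 474 normalized reads in the triple mutant replicates, against 77693, 73267 and 50504 in the pil1 mutant, a 133-fold fall (log2 -7.06 ± 0.21, adjusted p = 1.21e-07). PDC1, the main pyruvate decarboxylase, had 9297, 13208 and 15774 in the triple mutant, against 501053, 435839 and 411307 in the pil1 mutant, a 35.9-fold fall. HXT1, a low-affinity glucose transporter, fell 84.7-fold, to 388, 200.4 and 298 in the triple mutant, against 35731, 14036 and 28404 in the pil1 mutant. These 3 genes serve glucose entry and fermentation. ARO10 and ARO9, a decarboxylase and an aminotransferase of aromatic amino acid breakdown, fell 20.4-fold and 18.8-fold. The enolase gene ENO2 fell 17.9-fold. CWP2, a major cell wall mannoprotein, fell 16-fold, and AGA2, an agglutinin subunit of a cells, fell 18.7-fold and was a gene of few reads, with 9.10, 11.5 and 13.9 normalized reads in triple mutant libraries, against 173, 234 and 300.3 in the pil1 mutant. TOS4, a chromatin-associated gene of the G1/S program, and CDC21, the thymidylate synthase, fell 21.9-fold and 13.8-fold.

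**Figure D1:**
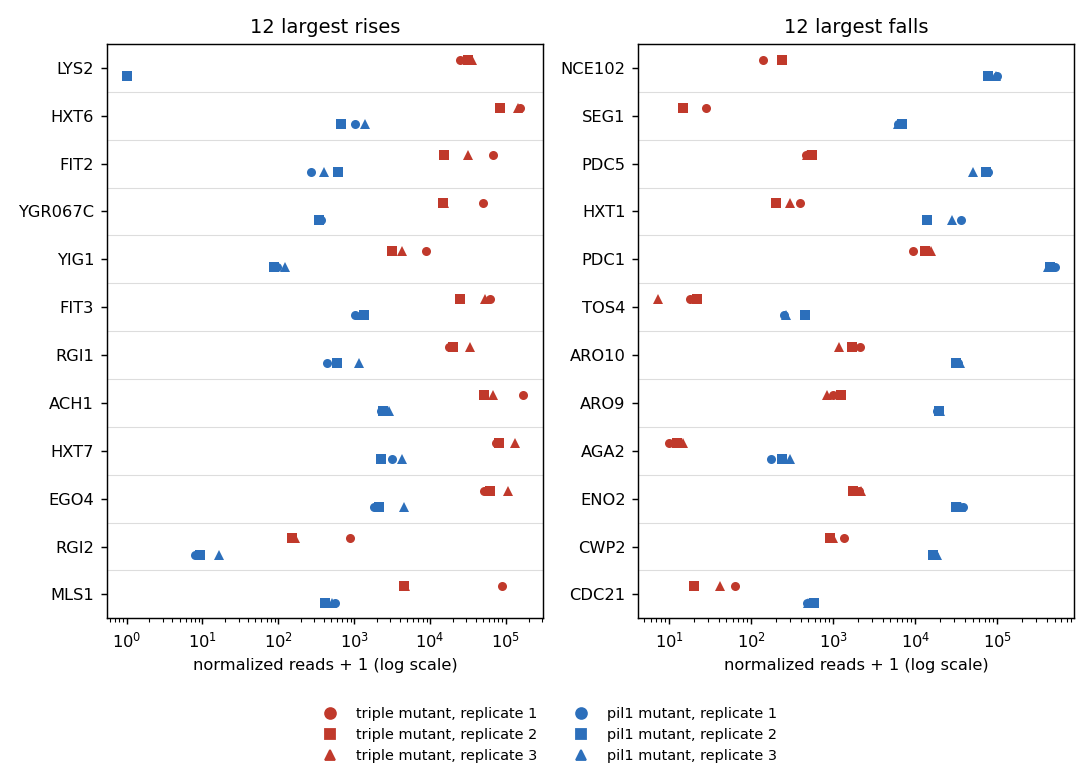
Normalized reads plus 1 on a log axis for the 12 largest rises (left) and the 12 largest falls (right). Both were taken from called genes that averaged 50 or more and did not overlap between strains, so every row is separate by choice. Each library is a point, triple mutant above pil1 mutant in every row. Replicate 1 of the triple mutant stands far from the other 2 for MLS1.

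Of 18 further eisosome and furrow genes, 10 rose and 1 fell, with a median log2 fold change of 0.52, and with total-read scaling 6 rose and 1 fell. The 61.1% of them that were called and the 66.7% without overlap between strains lay near the 63.0% and 69.4% of all genes. LSP1, the second scaffold protein and the paralog of PIL1, had 57259, 63796 and 75541 normalized reads across the triple mutant libraries, against 23183, 27185 and 29507 in the pil1 mutant (log2 1.30 ± 0.19, adjusted p = 0.000284). EIS1, a further eisosome component, had 14117, 11885 and 13764 in the triple mutant, against 4118, 7027 and 5628 in the pil1 mutant (log2 1.28 ± 0.26, adjusted p = 0.00236). Every triple mutant library was above every pil1 library for both. The paralogs of SEG1 and NCE102 did not pass the test. SEG2, the paralog of SEG1, had 3808, 4205 and 3717 in the triple mutant, against 3308, 3802 and 3167 in the pil1 mutant (log2 0.19 ± 0.12, adjusted p = 0.17). FHN1, the paralog of NCE102, was at 162, 187 and 176 in the triple mutant and 148, 218 and 170.3 in the pil1 mutant (log2 -0.02 ± 0.24, adjusted p = 0.955). Without replicate 2 of the pil1 mutant the FHN1 difference was 0.13.

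The Sur7 family of furrow membrane proteins was split. YNL194C rose by 2.40 ± 0.46 on the log2 scale, with 28569, 10161 and 14020.3 normalized reads in the triple mutant replicates, against 2091, 3949 and 3357 in the pil1 mutant. FMP45 rose by 1.36 ± 0.30, with 22268, 11244 and 15024 in the triple mutant, against 4841, 6963 and 6558 in the pil1 mutant. PUN1 was the member that fell, to 1040.0, 771 and 914 in the triple mutant, against 2891, 2464 and 3434 in the pil1 mutant (log2 -1.69 ± 0.16, adjusted p = 2.53e-05). SUR7 itself overlapped between strains, at 312, 465 and 424 in the triple mutant and 249, 554 and 342 in the pil1 mutant. MDG1, a plasma membrane protein with a role in pheromone signalling, rose by 1.88 ± 0.16. Of the kinases that act on Pil1 and Lsp1, PKH2 rose by 0.95 ± 0.09, to 9956, 8721 and 8883 in the triple mutant, against 4570.3, 5022 and 4682 in the pil1 mutant, and PKH1 had a log2 difference of 0.09 ± 0.11 (adjusted p = 0.497). PKH3, SLM2, which binds phosphoinositides, RFS1 and YGR130C rose by 0.46, 0.58, 0.59 and 0.73, and each of the 4 lost its call with total-read scaling. SLM1, PST2 and YCP4 did not pass the test.

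**Figure D2:**
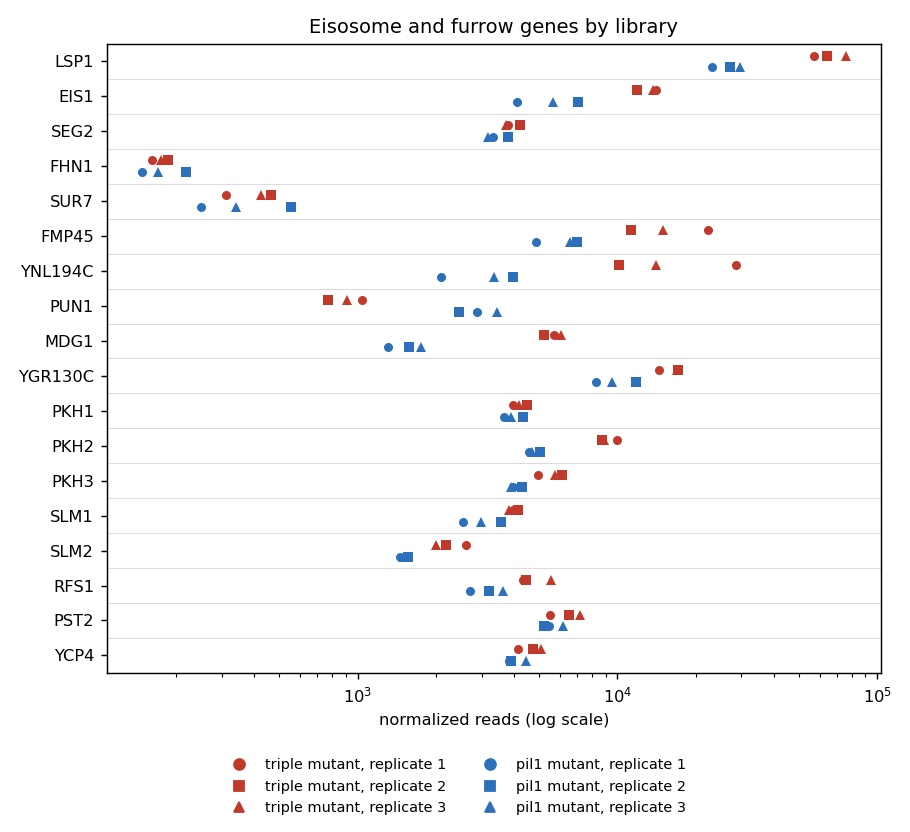
Normalized reads of the 18 eisosome and furrow genes other than PIL1, SEG1 and NCE102 on a log axis, 1 point per library, triple mutant above pil1 mutant in every row. LSP1, EIS1, FMP45, YNL194C, MDG1 and PKH2 are higher in all triple mutant libraries, PUN1 is lower in all, and the rows of SUR7 and FHN1 overlap.

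At the plasma membrane outside the eisosome, the gene of the proton pump fell and a stress gene of the membrane rose. PMA1, the proton-pumping ATPase, had 53865, 37052 and 55139.5 normalized reads in triple mutant libraries, against 197744, 132395 and 175897 in the pil1 mutant (log2 -1.80 ± 0.25, adjusted p = 0.000243). HSP30, a membrane protein known as a negative regulator of that pump, had 707404, 307515 and 513932 in the triple mutant, against 40664, 34474 and 54939.9 in the pil1 mutant (log2 3.50 ± 0.33, adjusted p = 2.42e-05). MRH1, a relative of HSP30, moved the other way, with 2335, 4232 and 5476 in the triple mutant, against 25603, 22092 and 27423 in the pil1 mutant (log2 -2.72 ± 0.27). None of these 3 genes overlapped between strains, but they were picked from the list's 4 members with the smallest p. Over the list of 8 genes, 1 rose, 4 fell, and the median was -0.55. The 62.5% called and the 75% without overlap were near the 63.0% and 69.4% of all genes.

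Nutrient permeases differed less often than all genes: 38.1% were called and 33.3% did not overlap, beside 63.0% and 69.4% of all genes. Of 21 amino acid and uracil permeases, 4 rose, 4 fell and 13 did not pass, with a median of 0.18 that turned to -0.08 with total-read scaling, where 4 rose and 7 fell, and to -0.10 without replicate 1 of the triple mutant. GAP1, the general amino acid permease, had 1555, 748 and 670.1 normalized reads across the triple mutant libraries, against 3835, 2887 and 4058 in the pil1 mutant (log2 -1.95 ± 0.29, adjusted p = 0.000352). ALP1, an arginine transporter, rose by 1.91 ± 0.15, and FUI1, the uridine permease, and MUP1, the methionine permease, fell by 1.20 ± 0.17 and 0.99 ± 0.22. CAN1, the arginine permease used as a furrow marker, had 7367, 9154 and 10201 in the triple mutant and 13494, 10199 and 12335 in the pil1 mutant (log2 -0.43 ± 0.16, adjusted p = 0.0437). Its call was lost without replicate 1 (-0.30) or replicate 2 (-0.46) of the triple mutant and without replicate 1 (-0.35) or replicate 3 (-0.41) of the pil1 mutant. Of 13 arrestin-like adaptors, which bring permeases to the ubiquitin ligase Rsp5, 7 rose and 2 fell (median 0.28, with 4 and 3 under total-read scaling). Their share called and their share without overlap were both 69.2%, near the 63.0% and 69.4% of all genes. CSR2 rose by 2.40 ± 0.22, with 32020.4, 26312 and 31198 in the triple mutant, against 6654, 3876 and 6885 in the pil1 mutant, and ART10 and RIM8 rose by 1.17 and 1.04. BUL1 fell by 0.66 ± 0.12.

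Of 28 ergosterol genes, 15 fell and 4 rose (median -0.43, with 21 and 1 under total-read scaling). ERG25, the C-4 methyl sterol oxidase, had 3914, 3942 and 3062 normalized reads in the triple mutant replicates, against 14092, 14072 and 13559 in the pil1 mutant (log2 -1.94 ± 0.11, adjusted p = 2.54e-06). ERG4, ERG2 and ERG13 fell by 1.43, 1.20 and 1.00, while HMG2, an HMG-CoA reductase isozyme, rose by 0.77 ± 0.09. In the sphingolipid list of 32 genes, 12 fell (37.5%) and 9 rose (28.1%), near the shares of all genes, and its median of 0.02 turned to -0.24 with total-read scaling. The fatty acid elongases ELO2 and ELO3, which make the very long acyl chains of ceramide, fell by 2.43 and 1.66, and ELO1, which acts on shorter chains, by 1.54. ELO2 had 91.0, 89.2 and 67.0 in the triple mutant, against 491, 431 and 416 in the pil1 mutant. LCB1, a subunit of serine palmitoyltransferase, and TSC3, its activator, fell by 0.99 and 1.16. YPC1, an alkaline ceramidase, rose by 1.71 ± 0.20, with 7614, 6025 and 9194 in the triple mutant, against 2059, 2078 and 2826 in the pil1 mutant. Of 44 actin patch and endocytosis genes, 17 rose and 8 fell, and the median of 0.16 turned to -0.10 with total-read scaling, where 6 rose and 12 fell. In that list 56.8% were called and 65.9% did not overlap, a little under the 63.0% and 69.4% of all genes. ABP1, an actin-binding patch protein, and BBC1 rose by 1.01 and 0.96, whereas ARC40, a subunit of the Arp2/3 complex, fell by 1.36.

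Of 18 genes of glycolysis and ethanol formation, 15 fell and 1 rose, with a median of -2.01, and of 17 genes of the tricarboxylic acid cycle, 16 rose and none fell, with a median of 2.43 (16 and 1 under total-read scaling). CDC19, the main pyruvate kinase, had 10533, 15556 and 16114 normalized reads in triple mutant libraries, against 136305, 101217 and 121018 in the pil1 mutant (log2 -3.10 ± 0.21). GLK1, glucokinase, was the gene that rose, by 2.41 ± 0.19, and its annotated span overlaps YCL042W. SDH1, the flavoprotein of succinate dehydrogenase, had 83584, 45864 and 59362 in the triple mutant, against 6227, 6002 and 6739 in the pil1 mutant (log2 3.27 ± 0.19, adjusted p = 2.44e-06). MDH1, mitochondrial malate dehydrogenase, rose by 3.01 ± 0.16. As a share of all normalized reads, the glycolytic list held 1.38% ± 0.38 in the triple mutant and 6.48% ± 0.39 in the pil1 mutant, and the tricarboxylic acid cycle 2.34% ± 0.38 in the triple mutant and 0.55% ± 0.04 in the pil1 mutant (SD, n = 3 each).

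Of 41 nuclear genes for the electron transport chain and ATP synthase, 40 were called higher and none lower, with a median of 2.09. Their reads made up 3.52% ± 0.49 of all normalized reads in the triple mutant and 0.96% ± 0.05 in the pil1 mutant (SD, n = 3 each). COX4, a subunit of cytochrome c oxidase, had 26405, 16220.2 and 21705 normalized reads across the triple mutant libraries, against 2741, 2540.2 and 3057 in the pil1 mutant (log2 2.92 ± 0.16, adjusted p = 2.2e-06). COR1, a core subunit of the bc1 complex, rose by 2.26 ± 0.11. COX5B, the subunit isoform known for hypoxic expression, was the member that did not pass (log2 0.28 ± 0.15). Mitochondrial ribosomal proteins rose with them, 69 of 73 called higher and none lower (median 0.74, with 48 and 1 under total-read scaling), and MRPL35 rose by 1.57 ± 0.12. Of 35 genes of mitochondrial import, 20 rose and 7 fell (median 0.40, with 9 and 10 under total-read scaling), including a rise of 1.23 ± 0.14 for SSC1, the matrix Hsp70. The 12 tested genes of the mitochondrial genome had a median of 1.66 and none was called. In these libraries of polyadenylated RNA, the genes of the mitochondrial genome held between 0.00191% and 0.0204% of reads in the triple mutant. In the pil1 mutant they held between 0.000887% and 0.00403%. Across the 16 nuclear chromosomes the median log2 fold change ran only from -0.12 on chromosome III to 0.09 on chromosome XI.

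The sequence before a respiratory gene can be shown for SDH4, the membrane anchor of succinate dehydrogenase, which had 32168, 20822 and 25858 normalized reads in the triple mutant replicates, against 2783, 2790.2 and 3171 in the pil1 mutant (log2 3.15 ± 0.15). Promoters here are the 250 bases before and the 50 bases from the start codon, read from the RefSeq R64 assembly on the gene's own strand. The SDH4 promoter, chrIV:817700-817999 on the plus strand, is printed with CCAAT in capitals, the letters bound by the Hap activator complex of respiratory genes.
SDH4: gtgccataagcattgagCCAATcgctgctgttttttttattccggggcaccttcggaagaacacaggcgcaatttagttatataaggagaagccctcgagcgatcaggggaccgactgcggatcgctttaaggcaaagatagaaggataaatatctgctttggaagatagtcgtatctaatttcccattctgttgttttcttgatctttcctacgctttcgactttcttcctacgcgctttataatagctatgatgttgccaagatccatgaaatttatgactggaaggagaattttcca
CCAAT, searched on both strands, was in 33 of 41 promoters of the respiratory list (80.5%) and 11 of 17 of the tricarboxylic acid cycle (64.7%), beside 43.6% of all 5785 promoters. It was in 54.3% of promoters of genes called at least 4-fold higher and 39.3% of those called at least 4-fold lower. Among all genes called higher or lower the shares were 45.7% and 43.6%, near that of all promoters.

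In 20 pairs of isozymes or paralogs, many of them known to differ by carbon source, the share of the first gene per coding length was higher in every triple mutant library in 14 pairs, lower in 1 and overlapping in 5. Single genes did not overlap in 69.4% of cases over all genes. The gene put first in each pair was set when the pairs were listed, so the direction depends on that order. Per coding length, COX5A made up 72.6% ± 8.87 of the COX5A and COX5B reads in the triple mutant and 30.3% ± 3.12 in the pil1 mutant (SD, n = 3 each). ACS1, the acetyl-CoA synthetase of respiratory growth, made up 66.2% ± 14.7 of its pair with ACS2 in the triple mutant and 17.4% ± 2.52 in the pil1 mutant. GDH3, a glutamate dehydrogenase of nonfermentative growth, made up 41.8% ± 9.90 of its pair with GDH1 in the triple mutant and 11.5% ± 3.81 in the pil1 mutant. In all 3 pairs the libraries of the strains were separate, but these pairs were picked from the 14. The log2 fold changes of ACS1 and GDH3 themselves were 2.72 and 2.93 with all libraries, and 1.73 and 2.22 without replicate 1 of the triple mutant. HXK1 rose by 3.14 ± 0.41 on the log2 scale, with 61099.5, 173823 and 204291 normalized reads in triple mutant libraries, against 12639, 12901 and 19310.4 in the pil1 mutant. HXK2, its glucose-grown counterpart, did not pass the test, at 6909, 8068 and 10041 in the triple mutant and 8851, 3715 and 8292 in the pil1 mutant. PYK2, the minor pyruvate kinase, also did not pass (log2 0.15 ± 0.16), yet held 11.2% ± 3.36 of its pair with CDC19 in the triple mutant and 1.31% ± 0.39 in the pil1 mutant, with the fall of CDC19 given above. ADH2, the alcohol dehydrogenase of ethanol use, did not pass the test (log2 -0.09 ± 0.14) and overlapped in its share with ADH1, at 13.5%, 5.36% and 4.88% in the triple mutant and 3.98%, 5.58% and 3.82% in the pil1 mutant. The shares of ALD4 with ALD6, CIT1 with CIT2 and NDE2 with NDE1 overlapped as well. The glycerol-3-phosphate dehydrogenase pair GPD1 and GPD2 stood at 74.1% ± 3.67 for GPD1 in the triple mutant and 76.1% ± 4.36 in the pil1 mutant. HSP82 and HSC82, and ENO1 and ENO2, are near copies whose reads the counting may have split.

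**Figure D3:**
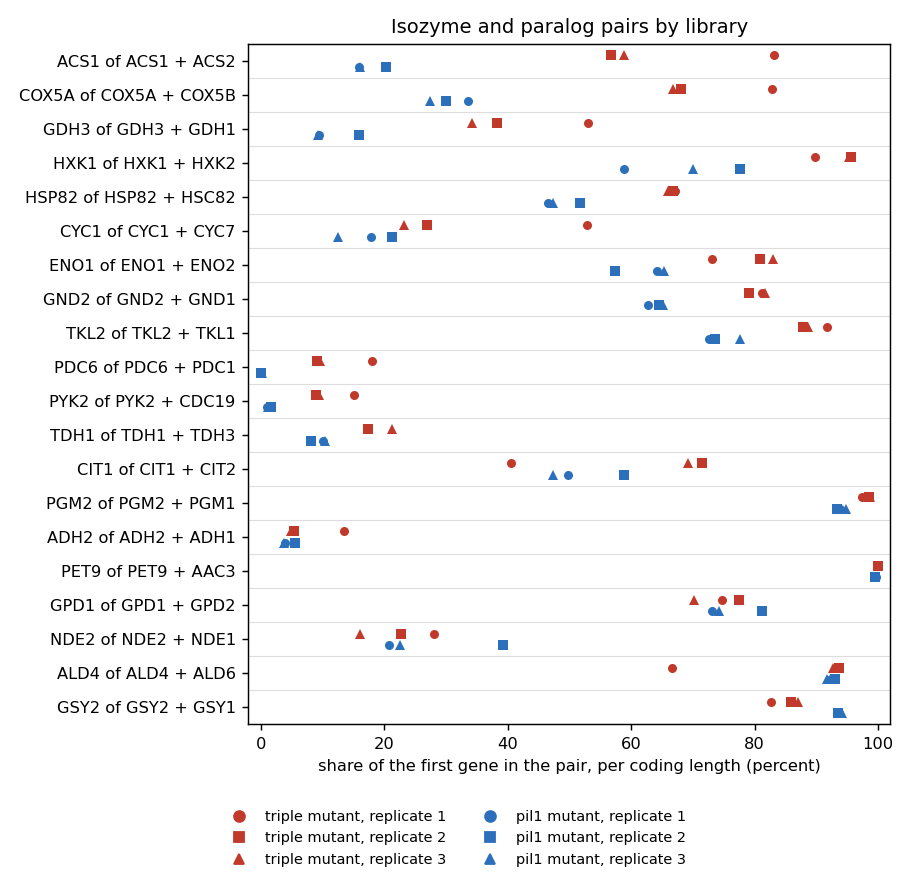
For 20 isozyme and paralog pairs, the share of the first gene in the reads of the pair, divided by coding length, in percent; 1 point per library, triple mutant above pil1 mutant in every row. ACS1, COX5A, GDH3 and HXK1 take larger shares in all triple mutant libraries, and ADH2, ALD4, CIT1, GPD1 and NDE2 overlap.

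Genes for growth on acetate and ethanol rose unevenly among the triple mutant replicates. Of 12 gluconeogenesis and glyoxylate genes, 10 rose and 1 fell, and the median of 2.41 became 1.65 without replicate 1. With only the 6 libraries of these strains in the fit, 6 rose. MLS1 had 87727, 4497 and 4748 normalized reads across the triple mutant libraries, against 564, 413 and 513 in the pil1 mutant, and its log2 fold change of 4.64 ± 0.98 became 3.23 without replicate 1. ICL1, isocitrate lyase, had 192065, 9226 and 9380.2 in the triple mutant, against 2503, 2421 and 2367 in the pil1 mutant, a log2 fold change of 3.39 ± 0.99 that became 1.94 without replicate 1. Without replicate 2 or replicate 3 it was 5.37 or 5.33 for MLS1 and 4.13 or 4.11 for ICL1. In both genes replicate 1 was far above the other 2, which were themselves above every pil1 library. SFC1, the mitochondrial succinate-fumarate carrier, had 28581, 596 and 770.0 in the triple mutant, against 154, 167 and 159 in the pil1 mutant (log2 3.88 ± 1.23, or 2.08, 4.87 and 4.68 without replicates 1, 2 and 3). YAT1, an outer mitochondrial carnitine acetyltransferase, had 69488, 3180.5 and 3879 in the triple mutant, against 1026, 968 and 1060.4 in the pil1 mutant (log2 3.22 ± 0.98, or 1.79, 4.01 and 3.87 without replicates 1, 2 and 3). YAR035C-A, which ends 80 bases from YAT1 on the other strand, had 2557, 101 and 110.0 in the triple mutant, against 38.3, 40.9 and 35.4 in the pil1 mutant (log2 2.97, or 1.44, 3.77 and 3.70 without replicates 1, 2 and 3). Whether the counting used strand was not given in the sources used here. These are the 5 called genes with the widest spread in the triple mutant. With only the 6 libraries fitted, ICL1, SFC1, YAT1 and YAR035C-A had adjusted p of 0.0653, 0.0817, 0.0727 and 0.107, and without replicate 1 all 5 were called. In the list of acetate, lactate, ethanol and carnitine genes, 11 of 19 rose and 1 fell (10 and 3 under total-read scaling), with a median of 1.71, or 0.79 without replicate 1. CAT2, carnitine acetyltransferase, rose by 2.76 ± 0.35.

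Among 30 regulators of glucose repression and respiration, 18 rose and 8 fell (median 0.78). CAT8, the activator of gluconeogenic genes, had 31496, 15902 and 20434 normalized reads in the triple mutant replicates, against 2196, 1964 and 2159 in the pil1 mutant (log2 3.37 ± 0.21, adjusted p = 3.06e-06). ADR1, an activator of ethanol and fatty acid use, rose by 2.67 ± 0.25, and RDS2 by 1.24. MIG3, a repressor related to Mig1, had 359.6, 315 and 317 in the triple mutant, against 1455, 1295 and 1438 in the pil1 mutant (log2 -2.08 ± 0.10, adjusted p = 9.69e-07). Among 19 hexose transporters and sensors, 7 rose and 4 fell (median 0.42, with 4 and 5 under total-read scaling). SNF3, the sensor of low glucose, rose by 2.34 ± 0.10, to 9591, 8136 and 9046 in the triple mutant, against 1799, 1686 and 1783 in the pil1 mutant. HXT3, a low-affinity transporter, fell by 2.62 ± 0.65, with 8051, 29711 and 34889.7 in the triple mutant, against 185993, 63044 and 166059 in the pil1 mutant, and by 1.96 without replicate 1 of the triple mutant. Of 35 peroxisomal and fatty acid oxidation genes, 20 rose and 5 fell (median 0.33, with 11 and 6 under total-read scaling). FOX2, the multifunctional beta-oxidation enzyme, and PXA1, a subunit of the peroxisomal fatty acid importer, rose by 2.23 and 1.95.

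Iron genes were led by the FIT genes. Of 28 genes of iron uptake and retention, 20 rose and 1 fell (19 and 3 under total-read scaling), with a median of 1.04, or 0.85 without replicate 1 of the triple mutant. SMF3, the vacuolar iron exporter, had 6306, 5632 and 5074 normalized reads in triple mutant libraries, against 2019, 2478 and 2076 in the pil1 mutant (log2 1.37 ± 0.16). The ferric reductase homologues FRE5 and FRE4 went apart, FRE5 up by 0.68 ± 0.08 and FRE4 down at -0.47 ± 0.09. TGCACCC is the core letter sequence bound by the iron-responsive activators Aft1 and Aft2. It was in 13 of 28 promoters of the iron list (46.4%), beside 1.28% of all promoters, in 6 of 140 promoters of genes called at least 4-fold higher and in 0 of 145 of those called at least 4-fold lower. The promoters of the pair with the largest rises, FIT2 on the plus strand of chrXV:1059281-1059580 and FIT3 on the minus strand of chrXV:1061006-1061305, are printed with that motif in capitals on either strand (GGGTGCA is its reverse complement).
FIT2: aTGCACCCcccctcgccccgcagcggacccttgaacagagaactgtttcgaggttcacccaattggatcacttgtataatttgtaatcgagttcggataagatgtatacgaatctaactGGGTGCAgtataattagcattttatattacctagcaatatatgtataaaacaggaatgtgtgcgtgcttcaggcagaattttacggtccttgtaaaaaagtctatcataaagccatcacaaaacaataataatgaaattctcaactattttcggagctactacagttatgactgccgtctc
FIT3: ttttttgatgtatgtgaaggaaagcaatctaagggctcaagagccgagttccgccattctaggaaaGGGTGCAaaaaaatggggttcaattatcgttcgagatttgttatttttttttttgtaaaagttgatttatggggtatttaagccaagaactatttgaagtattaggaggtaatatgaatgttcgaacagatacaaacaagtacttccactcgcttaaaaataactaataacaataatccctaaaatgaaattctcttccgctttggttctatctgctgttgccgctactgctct
FIT2 held 2 matches and FIT3 held 1.

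Of 36 general stress genes known to respond to Msn2 and Msn4, 27 rose and 1 fell, SNO1 (median 0.81). SPG1, a gene of stationary phase survival, had 5920.1, 2724 and 3603 normalized reads across the triple mutant libraries, against 260.1, 338 and 367 in the pil1 mutant (log2 3.60 ± 0.27). MCR1, a mitochondrial cytochrome b5 reductase, rose by 2.37 ± 0.18. AGGGG, the letters bound by Msn2 and Msn4, was in 22 of 36 promoters of that list (61.1%), in 33.6% of promoters of genes at least 4-fold higher, in 11.7% of those at least 4-fold lower and in 21.8% of all. Among other lists its share ran from 0% for thiamine genes to 61.1% for eisosome and furrow genes, with 56.8% for actin patch and endocytosis. MSN2 itself was called lower (log2 -0.44). Of 21 trehalose and glycogen genes, 13 rose and 1 fell (median 0.97). GSY1, a glycogen synthase, rose by 2.81 ± 0.23, to 5237, 6671 and 6256 in the triple mutant, against 692, 1014 and 908 in the pil1 mutant. ATH1, the acid trehalase, rose by 1.73 ± 0.13. Among 25 chaperone genes, 17 rose and 4 fell (median 0.64). HSP26, a small heat shock protein, had 179470.0, 304025 and 336395 in the triple mutant, against 59748, 50631 and 75646 in the pil1 mutant (log2 2.11 ± 0.28), while the ribosome-associated SSB1 and SSB2, which are near copies, fell. Of 25 antioxidant genes, 14 rose and 5 fell (median 0.48). TSA2, a peroxiredoxin, rose by 2.89 ± 0.21 and SOD2, the mitochondrial superoxide dismutase, by 1.58 ± 0.11. AHP1, a thiol peroxidase, fell by 1.00 ± 0.20.

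Of 137 cytosolic ribosomal protein genes, 129 fell and none rose, with a median of -1.30. They made up 1.32% ± 0.21 of all normalized reads in the triple mutant and 3.79% ± 0.03 in the pil1 mutant (SD, n = 3 each). RPS22A had 319.7, 511 and 456 normalized reads in the triple mutant replicates, against 3826, 3135 and 3341 in the pil1 mutant (log2 -3.02 ± 0.19, adjusted p = 3.55e-06), with the ranges far apart. Many of these genes are near copies of each other, so single members are uncertain. Of 97 ribosome biogenesis genes, 44 fell, 5 rose and 48 did not pass (median -0.59), and with total-read scaling 77 fell and 2 rose. UTP8, a subunit of the small-subunit processome, fell by 1.75 ± 0.24, while RIO1, a kinase of late ribosome maturation, rose by 0.69 ± 0.10. Of 20 subunits and factors of RNA polymerases I and III, 8 fell and 1 rose (median -0.38, with 13 and 0 under total-read scaling), and RPA135, the second largest subunit of RNA polymerase I, fell by 1.20 ± 0.24. Of 22 aminoacyl-tRNA synthetases, 6 fell and 1 rose (15 and 0 under total-read scaling), with a median of -0.26 that was -0.11 without replicate 1 of the triple mutant. Of 34 proteasome subunits, 12 rose and 8 fell, and their median of 0.07 turned to -0.18 with total-read scaling, where 3 rose and 15 fell. Among them 58.8% were called and 64.7% did not overlap, beside 63.0% and 69.4% of all genes.

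GAR1, a protein of the H/ACA small nucleolar particles, had 467, 521 and 516 normalized reads in triple mutant libraries, against 1706, 1549 and 1397 in the pil1 mutant (log2 -1.62 ± 0.12, adjusted p = 7.86e-06). Its promoter, chrVIII:283249-283548 on the minus strand, shows in capitals the 2 elements known from this gene class, GATGAG (PAC) and AAAATTTT (RRPE).
GAR1: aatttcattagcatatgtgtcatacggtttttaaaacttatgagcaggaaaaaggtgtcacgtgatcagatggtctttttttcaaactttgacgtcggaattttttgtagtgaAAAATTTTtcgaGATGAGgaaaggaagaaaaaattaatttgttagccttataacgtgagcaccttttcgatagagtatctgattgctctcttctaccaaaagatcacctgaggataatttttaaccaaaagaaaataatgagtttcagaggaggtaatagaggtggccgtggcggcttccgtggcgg
GATGAG was in 89 of 97 promoters of the ribosome biogenesis list (91.8%) and AAAATTTT in 74 (76.3%), beside 19.9% and 9.23% of all promoters. Genes called at least 4-fold lower, a class that leaves out GAR1 itself, did not carry them more often than all genes, at 16.6% and 7.59%. Among all genes called lower the shares were 22.0% and 11.3%, and among all called higher 15.8% and 4.78%.

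Of 39 genes of the G1/S transition, at which cells commit to replicate their DNA, 33 fell and 2 rose, with a median of -1.51 (36 and 0 under total-read scaling). SMC1 and SMC3, the cohesin ATPases, fell by 2.83 ± 0.18 and 2.46 ± 0.17, and POL2, the catalytic subunit of DNA polymerase epsilon, by 1.46 ± 0.08. CDC21, among the 12 largest falls in the ranking above, had 62.6, 18.9 and 40.5 in the triple mutant, against 475, 585 and 489 in the pil1 mutant (log2 -3.78 ± 0.35). Its promoter, chrXV:467540-467839 on the minus strand, is printed with ACGCGT, the letters bound by the MBF factor, in capitals.
CDC21: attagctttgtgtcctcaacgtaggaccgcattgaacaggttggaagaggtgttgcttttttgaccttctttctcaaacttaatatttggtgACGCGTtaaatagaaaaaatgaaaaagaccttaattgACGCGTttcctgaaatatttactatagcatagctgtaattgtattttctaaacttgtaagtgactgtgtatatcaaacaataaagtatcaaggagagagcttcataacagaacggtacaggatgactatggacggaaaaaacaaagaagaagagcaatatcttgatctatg
ACGCGT, a palindrome, occurred in 2 places in that promoter. It was in 16 of 39 promoters of the G1/S list (41.0%), in 15.2% of promoters of genes called at least 4-fold lower, in 0.714% of those called at least 4-fold higher and in 3.15% of all. The 5 promoters printed were chosen after their values and motif matches were seen.

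Histones and later cell cycle genes were mixed. Of 10 histone genes, 4 fell and 2 rose (median -0.35, with 6 and 1 under total-read scaling). The 60% called and the 60% without overlap did not exceed the 63.0% and 69.4% of all genes. HTB2, histone H2B, had 539, 443 and 413 normalized reads in the triple mutant replicates, against 2796, 2948 and 2475 in the pil1 mutant (log2 -2.56 ± 0.12). HTA2, HHF1 and HHF2, near copies of other histone genes, fell by 2.69, 1.28 and 1.13, and HTZ1, the variant H2A.Z, rose by 0.69 ± 0.12. In the list of 19 genes of G2/M and cell separation, 9 rose and 8 fell, with a median of 0.17 that turned to -0.09 with total-read scaling. DSE4, a daughter cell glucanase, had 5498, 4894 and 4990.4 in the triple mutant, against 1530.1, 1536 and 1638 in the pil1 mutant (log2 1.71 ± 0.09). DSE1 and SCW11, further daughter cell genes, rose by 1.75 and 1.09, and CDC20, an activator of the anaphase-promoting complex, by 1.27. The mitotic cyclin CLB2 and the kinesin KIP2 fell by 1.41 and 1.73, and ASH1, a daughter cell repressor, by 0.91.

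Most genes of the cell wall integrity pathway fell. Of 38 kinase, sensor and target genes, 26 fell and 8 rose (median -0.81, with 27 and 4 under total-read scaling). SLT2, the pathway's MAP kinase, had 2261, 2927 and 2817 normalized reads in triple mutant libraries, against 11169, 12824 and 11419 in the pil1 mutant (log2 -2.15 ± 0.13, adjusted p = 2.62e-06). CRH1, a wall transglycosylase and known target, had 1182, 672 and 789 in the triple mutant, against 7156, 8099.7 and 7030.2 in the pil1 mutant (log2 -3.11 ± 0.19). KDX1, a kinase related to Slt2, and ECM33, a wall protein, fell by 1.79 and 1.95. Each of these 4 genes, the list's 4 with the smallest p, had separate ranges, as did 92.1% of the list and 69.4% of all genes. The genes that rose were PKC1, ROM2, MKK2, SLG1, MID2, MTL1, GSC2 and PIR3. MTL1, a sensor, rose by 1.17 ± 0.15, ROM2, a Rho1 exchange factor, by 0.63 ± 0.09, and GSC2, a stress-induced glucan synthase, by 1.38 ± 0.30, whereas PKC1, MKK2, SLG1 and MID2 lost their calls with total-read scaling. MID2 also lost its call without replicate 3 of the triple mutant or any 1 replicate of the pil1 mutant, and overlaps YLR331C. Of 15 wall mannoproteins, 9 fell and 5 rose (median -0.55). CCW12 fell by 2.12 ± 0.20, with 11071, 6119 and 8706 in the triple mutant, against 34300.5, 34384 and 41425 in the pil1 mutant, and TIR2 rose by 1.36 ± 0.17.

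Both strains are MATα. Of 20 genes of haploid cells and the pheromone response, 12 fell and 3 rose (median -0.84, with 13 and 0 under total-read scaling). FAR1, the pheromone-activated cell cycle inhibitor, had 394, 294 and 212 normalized reads across the triple mutant libraries, against 1806, 2385 and 1805 in the pil1 mutant (log2 -2.76 ± 0.21). AGA1, the agglutinin anchor, and KSS1, a MAP kinase, fell by 2.00 and 1.72. Of the 5 α-specific genes 4 fell, among them MF(ALPHA)1, the main α-factor gene, by 1.24 ± 0.15 and SAG1, the α-agglutinin, by 1.05 ± 0.11. Of the 7 a-specific genes 5 fell and 1 rose (6 and 0 under total-read scaling), with a median of -1.25. STE2, the receptor of a cells, had reads in both strains, with 257, 302 and 283 in the triple mutant, against 633, 819.9 and 725 in the pil1 mutant. Of 19 sporulation genes, 4 fell and 2 rose (7 and 0 under total-read scaling), with a median of -0.12.

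All 15 called genes of the 18 in purine synthesis fell (median -1.02), with IMD3, an IMP dehydrogenase, at 1034, 1534 and 1223 normalized reads in the triple mutant replicates, against 4422, 4509.7 and 3778 in the pil1 mutant (log2 -1.76 ± 0.15). ADE4, which catalyses the committed step, fell by 1.55 ± 0.17. Of 28 sulfate and methionine genes, 13 fell and 3 rose (median -0.58, with 20 and 3 under total-read scaling). SAM2, an S-adenosylmethionine synthetase, had 1021, 888 and 1084 in the triple mutant, against 5722, 5306 and 5089.5 in the pil1 mutant (log2 -2.43 ± 0.09, adjusted p = 4.69e-07), and MET4, the activator of the pathway, rose by 0.78 ± 0.10. Of 10 arginine genes, 5 fell and none rose, so 50% were called, beside 63.0% of all genes called and 32.1% called lower. ARG5,6 had 19915, 18083 and 20628 in the triple mutant, against 60597, 68133 and 56637 in the pil1 mutant (log2 -1.66 ± 0.14). Amid 17 genes of histidine, leucine and branched-chain synthesis, where 4 fell and 2 rose, LEU1, isopropylmalate isomerase, rose by 2.11 ± 0.27, with 248995, 292303 and 296269 in the triple mutant, against 79432, 51555 and 65088 in the pil1 mutant. That list's median of 0.08 turned to -0.18 with total-read scaling, where 6 fell and 1 rose.

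Lysine synthesis is of interest because the strains differ at LYS2. Of its 9 other genes, 4 fell and 2 rose (median -0.19, with 6 and 1 under total-read scaling). The 66.7% of them called and the 66.7% without overlap lay near the 63.0% and 69.4% of all genes. LYS4, homoaconitase, had 2245, 2968 and 2619.7 normalized reads in triple mutant libraries, against 4989, 4507 and 4293 in the pil1 mutant (log2 -0.82 ± 0.11, adjusted p = 0.000214). LYS1, saccharopine dehydrogenase, and LYS12, homoisocitrate dehydrogenase, fell by 0.60 and 0.52. LYS20, a homocitrate synthase with the near copy LYS21, rose by 0.76 ± 0.18, with 43845, 27018 and 37219.9 in the triple mutant, against 22163, 19485 and 20881 in the pil1 mutant. LYS14, the activator of the pathway, was called higher at 0.51 ± 0.09 and lost that call with total-read scaling.

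Of 29 nitrogen use genes, 11 rose (37.9%) and 10 fell (34.5%), near the shares of all genes (median -0.01, or 0.04 without replicate 1 of the triple mutant). DAL80, a GATA repressor of nitrogen genes, rose to 171, 165 and 188 normalized reads across the triple mutant libraries, against 22.6, 32.0 and 32.5 in the pil1 mutant (log2 2.56 ± 0.18). DAL7, a malate synthase of allantoin breakdown, fell by 1.83 ± 0.12, and CAR2, the ornithine transaminase of arginine breakdown, rose by 1.31 ± 0.14. Of 35 autophagy genes, 21 rose and 4 fell (median 0.37, with 10 and 5 under total-read scaling). ATG39, a receptor for autophagy of the nuclear envelope, had 11086, 10176 and 12838 in the triple mutant, against 2836, 3523 and 4236 in the pil1 mutant (log2 1.70 ± 0.17). Of 17 glycerol and osmotic genes, 7 rose and 6 fell, with a median of 0.15 that turned to -0.11 with total-read scaling. GUT1, glycerol kinase, rose by 2.37 ± 0.15, and GPP1, a glycerol-3-phosphatase, fell by 3.30 ± 0.47, with 2823, 1930.1 and 2607 in the triple mutant, against 33916, 13899 and 29029 in the pil1 mutant. In the phosphate regulon of 21 genes, 7 fell and 5 rose, and its median of 0.18 turned to -0.08 with total-read scaling, where 7 fell and 0 rose. Of 19 thiamine genes, 5 fell and 4 rose (median -0.04, with 8 and 3 under total-read scaling), with THI80, thiamine pyrophosphokinase, down by 1.78 ± 0.14.

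**Figure D4:**
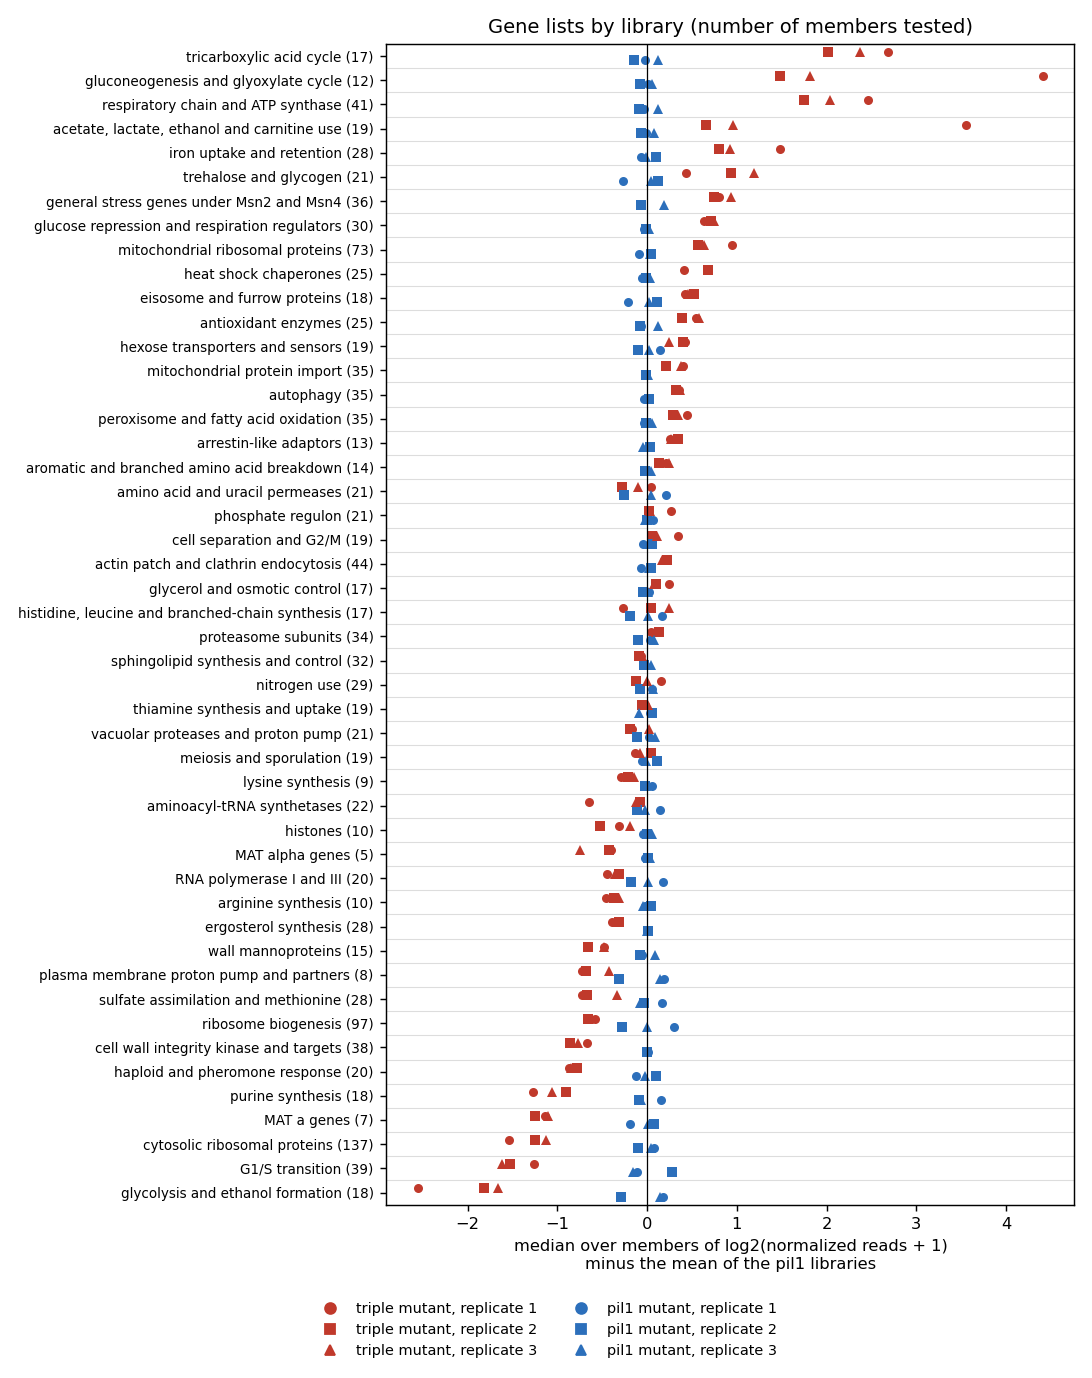
For each gene list (members tested in brackets), the median over members of log2(normalized reads + 1) minus the mean of the pil1 libraries, 1 point per library, triple mutant above pil1 mutant in every row. Lists are ordered by the median fold change, from the tricarboxylic acid cycle (2.43) to glycolysis and ethanol formation (-2.01), and replicate 1 of the triple mutant lies apart in the gluconeogenesis and acetate lists.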

How the data were processed

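Polyadenylated RNA of 9 libraries was measured, 3 each of the triple mutant, the pil1 mutant and the wild type. The submitters' processing notes name GSNAP, DESeq, DESeq2 and the build R64, without versions or roles. The read counter, gene models and use of strand were not given in the sources used here. Overlapping and antisense genes therefore cannot be told apart. In the first table the authors deposited a signal: each read count over its library's size factor (0.791 to 1.34). This was found from the values: 100.0% of them were whole multiples of 1 read at a tolerance of 1e-06. The second deposited table holds log2 values after a transformation of unstated kind.

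The main test was limma 3.58.1 in R 4.3.3 (trend and robust) on log2(value + 1) of the first table, with group means of all 9 libraries, the contrast triple mutant minus pil1 mutant, two-sided p-values and Benjamini-Hochberg adjustment over 5879 genes. Fold changes are on that scale and understate low genes. The design named a count test only for raw counts, so edgeR 4.0.16 and DESeq2 1.42.0 on the recovered reads were alternatives, and edgeR also called 3704 genes. Recovered reads came to 21064051 to 27014469 per library. The fit was also run on simulated data as a check of the code. Its outcome is not given here, and no result above rests on it. An exact permutation test of 3 libraries against 3 cannot go below p = 0.1, so calls rest on spread pooled over genes.

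Of the gene identifiers, 6212 were found in the RefSeq R64 annotation and 3 were not. By BLAST 2.17.0, 309 tested genes had a copy at least 90% identical over at least 50% of their length, and 184 overlapped another gene. Promoter sequences are from RefSeq R64.

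Members and gene lists were chosen with earlier results of these data known. Genes to name were drawn from the deleted and marker genes and their neighbours, all eisosome genes, both genes of each pair, in each list up to 4 members by smallest p and any called against the list's median, the 12 largest rises and 12 largest falls with a mean of at least 50 and no overlap between strains, the 5 called genes with the widest spread in the triple mutant, and the genes of the 5 promoters. The 5 genes of widest spread passed the same limits on mean and overlap as the rises and falls. The text names only some of the genes drawn, a choice made with their values known. No set test was run. Alternatives were TMM and total-read scaling, the transformed table, no filter, a pseudocount of 5, a mean of 50 or more, only 6 libraries, a replicate block, both count tests and each library left out in turn.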

Additional observations from a re-analysis of the deposited data

How the results depend on the processing

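The test reported above called 3704 genes, and alternatives that left out no replicate of the mutants called 3591 to 4160. The genes called were not all the same. Of the 3704, 2914 were also called with total-read scaling, 3525 with only the 6 libraries and 3237 without pil1 replicate 1. No gene called both there and in an alternative had opposite signs. Total-read scaling gave 1024 genes called higher and 333 called higher by at least 2-fold. Leaving out each library in turn gave 3263 to 3606 calls, with 1588 to 1784 higher, 1674 to 1822 lower, 465 to 573 higher by at least 2-fold and 732 to 789 lower by at least 2-fold. Of 369 named genes that were called, 292 kept their call in every alternative. SFC1 and YAR035C-A lost theirs without any 1 of the pil1 libraries, YAT1 without pil1 replicate 1 or 2. The cause of these changes was not tested.

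Total-read scaling turned the log2 fold changes of PDL32 (-0.062), PYK2 (-0.11), SEG2 (-0.065), SUR7 (-0.13), PKH1 (-0.17), PST2 (-0.077), YCP4 (-0.062) and HMG1 (-0.037), of which HMG1 alone had been called. It also turned the medians of the lists of permeases (-0.079), sphingolipids (-0.24), actin patch and endocytosis (-0.10), proteasome (-0.18), histidine, leucine and branched-chain synthesis (-0.18), phosphate (-0.078), glycerol and osmotic control (-0.11) and cell separation and G2/M (-0.087). With edgeR the sphingolipid median was -0.00034. Over the single libraries left out, the log2 fold change ran from -0.14 to 0.13 for FHN1, from -0.35 to 0.20 for RAD16, from -0.27 to 0.0069 for ADH2, from -0.14 to 0.43 for SUR7 and from -0.056 to 0.57 for HXK2. List medians ran from -0.10 to 0.17 for permeases, from -0.021 to 0.035 for sphingolipids, from -0.069 to 0.044 for nitrogen use, from -0.062 to 0.043 for thiamine and from -0.012 to 0.15 for histidine, leucine and branched-chain synthesis.

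The replicate block called 4160 genes with 9 libraries and 3732 with 6. Deviations from the group mean correlated at 0.071, 0.241 and 0.443 for same-numbered triple and pil1 libraries 1 to 3. Differently numbered libraries ran from -0.296 to 0.018. The main test did not treat the numbers as pairs because its design held no pairing, and the replicate block stands beside it as an alternative. Every library correlated best with its own number, which is a hint from the data and not from the design. The genes of the mitochondrial genome held at most 0.0204% of reads in any library of the mutants. They had 4820, 1473 and 402 reads in the triple mutant replicates and 1040, 925 and 199 in the pil1 replicates. Why none of these genes was called was not tested.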

Other observations

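Of 21 vacuolar proteases and proton pump subunits, 3 rose and 6 fell (median log2 fold change -0.09, with 1 and 12 under total-read scaling). The 42.9% of them called lay under the 63.0% of all genes. PRC1, carboxypeptidase Y, rose by 1.24 ± 0.13 on the log2 scale, with triple mutant libraries at 56024, 49593 and 57802 normalized reads, against 23144, 20868 and 25418 in the pil1 mutant. VMA5, a subunit of the vacuolar proton pump, fell by 0.91 ± 0.11. Of 14 genes of aromatic and branched amino acid breakdown, 5 rose and 3 fell (median 0.26, with 3 and 5 under total-read scaling). Their share called, 57.1%, was also under that of all genes. ADH5, an alcohol dehydrogenase, rose by 1.31 ± 0.14, and PDC6, a minor pyruvate decarboxylase whose gene lies beside PIL1, rose by 1.85 ± 0.23, with 2038, 1327 and 1665 in the triple mutant, against 520.2, 349 and 528 in the pil1 mutant. PDC1 and PDC5 fell, and per coding length PDC6 made up 12.2% ± 4.99 of the PDC6 and PDC1 reads in the triple mutant and 0.104% ± 0.024 in the pil1 mutant (SD, n = 3 each).

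The median GC content of coding sequences was 41.7% for genes called at least 4-fold higher, 40.2% for those called at least 4-fold lower and 39.8% for all tested. In 4 genes of chromosome I wild type replicate 1 had under 5 normalized reads and the other wild type replicates at least 50. With all 9 libraries in the fit 0 of these were called, and with the 6 libraries of the 2 mutants 2 were.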
